A study of Danio rerio with 11 samples.

Results

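The respiratory chain passes electrons from NADH and succinate to oxygen and uses the energy to make ATP. It is assembled from proteins of 2 genomes. Most subunits of complexes I (NADH dehydrogenase), III (cytochrome bc1), IV (cytochrome c oxidase) and V (ATP synthase), and all of complex II (succinate dehydrogenase), are made from nuclear genes. A small core of hydrophobic subunits is transcribed from the circular mitochondrial genome inside the organelle, as long RNAs that are later divided into single messages.

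The genes described here are the 108 respiratory chain genes, among the 24441 genes of the deposited expression table, whose symbols begin with the usual stems for subunits of the complexes (nduf, sdh, uqcr, cox4 to cox8, atp5, cyc1 and the mt- protein genes), each identifier counted once. They comprise 95 nuclear-encoded and 13 mt- members. The stems also took in 11 nuclear assembly factors (ndufaf1, sdhaf3 and their relatives) and atp5s, which were kept apart from the 83 nuclear subunits.

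RNA-seq was performed on FACS-isolated zebrafish cells in 3 groups, 11 samples from 9 fish in all. The MA group (genotype BRAFV600E/p53lf/lf/crestin:EGFP) comprised GFP+ melanoma cells of 5 tumors from 3 fish, and MA3A, MA3B and MA3C are separate tumors of 1 animal. The MC_Het group (BRAFV600E/+/p53+/lf/mitfa+/-/mitfa:mCherry) comprised mCherry+ skin melanocytes of 3 fish that carry the oncogene and loss of function (lf) alleles without being tumors, and the MC_WT group (mitfa:mCherry) those of 3 fish with neither. The BRAF V600E transgene is driven by the melanocyte promoter of mitfa, the mCherry reporter travels with a MiniCoopR vector that also supplies a mitfa minigene, and the melanoma reporter is driven by crestin, a neural crest gene that is switched on again in melanoma. The comparisons ask how the messages of the respiratory chain differ between melanoma cells and either class of melanocyte, and between the melanocyte classes.

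Library totals ranged between 14718024 and 22612463 reads. Levels are given as rescaled CPM, that is, the deposited CPM (counts scaled to the library total) divided by a median-of-ratios factor for each library, which was 1.19 to 1.36 in MA and 0.685 to 0.889 in the melanocytes. Fold changes (log2FC) and their standard errors come from limma on log2(rescaled CPM + 1), a scale that understates the change of low genes, and a gene was called at a Benjamini-Hochberg adjusted p under 0.05 over all genes tested. These are bulk samples, so fewer cells of a type and less RNA per cell cannot be told apart. The sorted melanocyte libraries also held markers of other skin cells. Keratinocyte markers summed to 140 to 492 rescaled CPM in MA, against 46813 to 89740 in MC_Het and 62927 to 110518 in MC_WT, with all 8 tested keratinocyte markers lower in MA. Leukocyte markers summed to 87.0 to 942 in MA, against 4907 to 6763 in MC_Het and 5499 to 7821 in MC_WT, with all 7 lower in MA. Markers of ionocytes, the mitochondria-rich cells of fish skin, summed to 27.4 to 87.2 in MA, 337 to 1260 in MC_Het and 270 to 451 in MC_WT, with 3 of 4 tested lower in MA. Most of that sum in the melanocytes was ca2, which averaged 608 in MC_Het and 278 in MC_WT. The ionocyte gene foxi3a was low, at means of 0.970 in MC_Het and 0.886 in MC_WT. Its relative foxi3b was at 3.38, 6.82 and 0.068 in the MC_Het samples, with a mean of 0 in MC_WT. From the same list, trpv6 was at 12.5, 41.3 and 0.342 in the MC_Het samples, against means of 0.303 in MC_WT and 0.221 in MA. Melanocyte markers summed to 3634 to 11085 in MA, 1293 to 5296 in MC_Het and 494 to 1034 in MC_WT. Of 10 tested, 8 were higher in MA over MC_WT and 5 over MC_Het, and 1, oca2, was lower in both. The highest 2 of the list, tyrp1b and pmela, were called over MC_WT but not over MC_Het. Genes of the dissociation stress response (fosab, jun and their like) summed to 1235 to 8606 in MA, against 15870 to 24947 in MC_Het and 13189 to 17887 in MC_WT, with 4 of 5 lower in MA over MC_WT and 3 of 5 over MC_Het. The part that these other cells and this response play in any result that follows was not tested.

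The messages of the mitochondrial genome were lower in melanoma cells. All 13 mt- members fell in MA relative to MC_WT, where 25.1% of all tested genes fell, with a median log2FC of -1.89 (3.71-fold lower). All 13 also fell relative to MC_Het, where the background of lower genes was 25.2%, with a median log2FC of -1.63 (3.10-fold lower). The medians of all tested genes were 0.04 and 0.03. The 13 messages share a common source and are not independent of each other. None of the 13 reached the stricter threshold of a log2FC beyond 1 at an adjusted p under 1e-6, which 2.58% of all genes passed in the lower direction over MC_WT and 3.01% over MC_Het. In 12 of the 13, every MA sample lay below every melanocyte sample, a pattern that 18.6% of all tested genes showed.

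**Figure D1:**
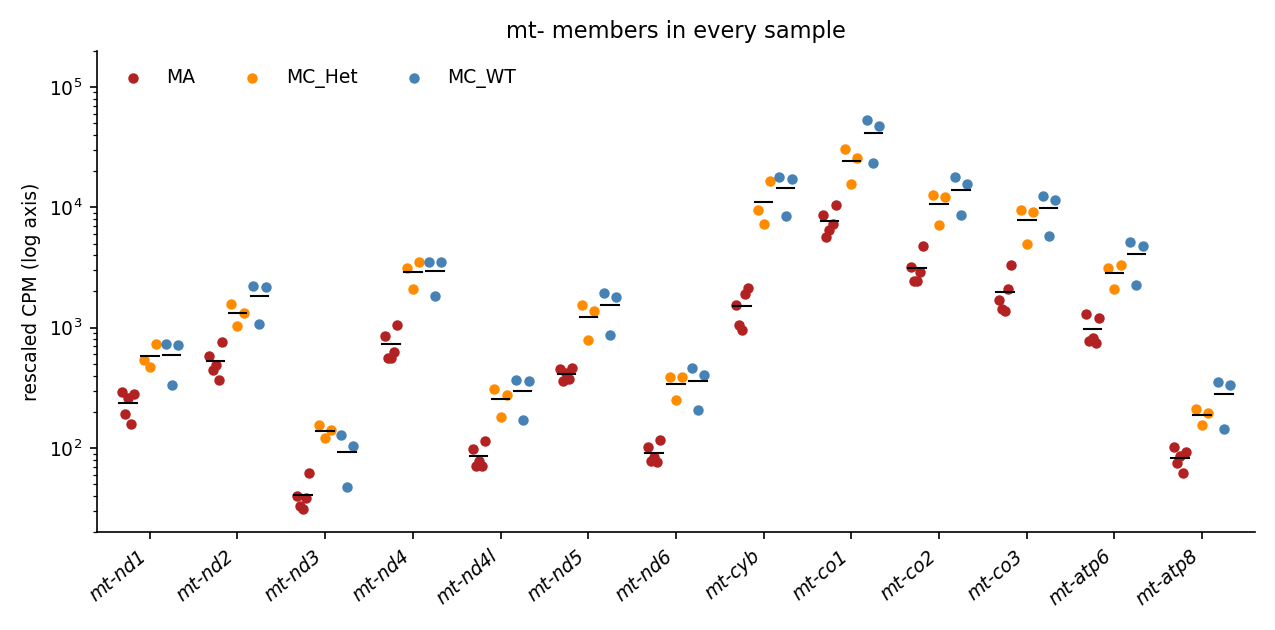
Rescaled CPM (log axis) of the 13 mt- members in each of 5 MA, 3 MC_Het and 3 MC_WT samples; points are samples and bars are group means. Every MA point lies below every melanocyte point except in mt-nd3, where MA3C (62.2) exceeds MC_WT replicate 2 (47.3).

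The largest difference belonged to mt-cyb, which encodes cytochrome b, the only subunit of complex III made in the organelle. Its levels were 1549, 1046, 964, 1921 and 2121 rescaled CPM in MA1, MA2, MA3A, MA3B and MA3C, against 9496, 7328 and 16660 in the MC_Het samples and 17990, 8493 and 17083 in the MC_WT samples. The highest tumor remained well below the lowest melanocyte sample. The log2FC was -3.25 (SE 0.41, limma adjusted p = 2.25e-05) over MC_WT and -2.86 (SE 0.41, limma adjusted p = 6.86e-05) over MC_Het, or 9.5-fold and 7.25-fold lower.

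The catalytic core of complex IV followed. The message of mt-co1, which holds the oxygen-reducing centre, was at 8579, 5628, 6443, 7228 and 10465 rescaled CPM in the 5 MA samples, against 30443, 15763 and 25939 in MC_Het and 52860, 23480 and 47507 in MC_WT. No MA sample reached a melanocyte sample, and MC_Het replicate 2 and MC_WT replicate 2 were the lowest of their groups. The log2FC of mt-co1 was -2.38 (SE 0.45) over MC_WT and -1.63 (SE 0.45) over MC_Het, with limma adjusted p of 0.000647 and 0.00854. The other 2 core subunits were lower by similar amounts, with a log2FC of -2.14 over MC_WT and -1.75 over MC_Het for mt-co2, and of -2.33 and -2.02 for mt-co3.

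Both mt- subunits of ATP synthase fell. mt-atp6, which forms part of the proton channel, averaged 971 ± 265 rescaled CPM in MA (SD, n = 5), against 2844 ± 672 in MC_Het and 4070 ± 1558 in MC_WT (n = 3 each), a log2FC of -1.56 and -2.02. For mt-atp8 the log2FC was -1.16 over MC_Het and -1.64 over MC_WT. The reading frames of mt-atp8 and mt-atp6 overlap, as do those of mt-nd4l and mt-nd4, so short unstranded reads may not be assigned to one of them with certainty.

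The 7 mt- subunits of complex I, which form its membrane-embedded proton pumps, had log2FC between -2.0 and -1.09 over MC_WT and between -2.01 and -1.30 over MC_Het. mt-nd4 lay at the lower end in both comparisons, at 848, 555, 565, 631 and 1061 rescaled CPM in MA, against 3157, 2099 and 3518 in MC_Het and 3542, 1829 and 3544 in MC_WT. mt-nd1, the first protein gene after the ribosomal RNAs, was at 295, 190, 262, 157 and 280 in MA, against 540, 467 and 730 in MC_Het and 725, 335 and 722 in MC_WT. Its groups were closer, with a log2FC of -1.28 (SE 0.32, limma adjusted p = 0.00503) over MC_WT. The call of mt-nd1 was lost in both comparisons on the deposited CPM and on CPM computed over the reads outside the mitochondrial genome. The log2FC of mt-nd2 was -1.76 over MC_WT and -1.34 over MC_Het, and that of mt-nd5 was -1.81 and -1.52. mt-nd4l was at -1.73 over MC_WT and -1.54 over MC_Het.

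mt-nd3 was the only mt- member whose groups overlapped, at 40.1, 32.8, 31.4, 38.4 and 62.2 rescaled CPM in MA, against 155, 122 and 140 in MC_Het and 128, 47.3 and 104 in MC_WT, and its log2FC was -1.09 (SE 0.33, limma adjusted p = 0.0153) over MC_WT and -1.78 over MC_Het. mt-nd6, the only mt- member encoded on the opposite strand, was at 103, 77.9, 84.6, 77.1 and 116 in MA, against 392, 252 and 386 in MC_Het and 459, 206 and 408 in MC_WT. Its log2FC of -1.89 over MC_WT and -1.88 over MC_Het lay within the range of the other strand's genes. Unstranded reads cannot tell the mt-nd6 message from RNA of the opposite strand at the same place, so the strands are not compared by these values.

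Per length of the gene (rescaled RPKM), the order of the mt- members was nearly the same in each group. mt-co1 and mt-co2 led and mt-nd3 was last in all 3. mt-co1 averaged 4944 ± 1228 rescaled RPKM in MA, against 15505 ± 4849 in MC_Het and 26617 ± 10089 in MC_WT, and mt-co2 averaged 4558 ± 1385, 15364 ± 4378 and 20330 ± 7023. Within a library, mt-co1 per length was 0.978 to 1.20 times mt-co2 in MA, against 0.953 to 1.08 times in MC_Het and 1.22 to 1.35 times in MC_WT. mt-cyb ranked 5 in MA, 4 in MC_Het and 3 in MC_WT. The ratio of mt-cyb to mt-nd1 within a library, a pair chosen here for its contrast and therefore not tested, was 3.14 to 10.4 in MA, against 13.4 to 19.5 in MC_Het and 20.2 to 21.7 in MC_WT. The same ratio for mt-co1 to mt-nd1 was 15.4 to 28.9 in MA, 21.2 to 35.4 in MC_Het and 41.4 to 45.8 in MC_WT, so that MA and MC_Het overlapped there.

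The main ribosomal RNA gene of the same genome had a smaller estimated fall than any mt- member, a difference that was not tested. The main mitochondrial rRNA gene of the table had a log2FC of -0.69 over MC_WT (SE 0.59, limma adjusted p = 0.355) and -0.65 over MC_Het (SE 0.59, limma adjusted p = 0.393), neither of which passed the test. The summed rRNA was 2.29, 5.0, 4.21, 2.94 and 4.03 times the summed mt- members in MA, against 1.55, 1.74 and 1.36 times in MC_Het and 1.13, 1.28 and 0.994 times in MC_WT, without overlap between MA and the melanocytes. Nearly all of that rRNA sum came from the main gene. The second rRNA gene of the table, far lower in counts at 101 ± 17.7 rescaled CPM in MA, 238 ± 41.9 in MC_Het and 245 ± 67.8 in MC_WT, did fall. Its log2FC was -1.23 over MC_Het and -1.25 over MC_WT, within the range of the mt- members in both comparisons. Of 22 mitochondrial tRNA genes, 14 were tested, of which 5 fell in MA over MC_WT, 6 fell over MC_Het and 0 rose in either. Of all tested genes, 25.1% and 25.2% fell in these comparisons. Several of the tested tRNA genes were near the filter of 1 CPM.

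The nuclear-encoded members did not fall with them. On the median-of-ratios scale, 14 of the 93 tested nuclear members rose in MA relative to MC_WT and 3 fell, against 19.4% of all genes that rose, with a median log2FC of 0.28. Relative to MC_Het, 30 rose and 4 fell, against 20.5% of all genes that rose, with a median of 0.45, which was the same with sdhda, absent from MC_Het, set at its lower bound. The first share is below the background and the second above it, while the shares that fell are far below it. The nuclear counts depended on the scaling: on the deposited CPM, where the median of all genes moved to 0.62 over MC_WT and 0.52 over MC_Het, 63 and 62 nuclear members were higher and 1 lower in each comparison. The background on that scale was 37.8% higher and 18.7% lower over MC_WT, and 35.7% higher and 19.9% lower over MC_Het, and 11 of the 13 mt- members still fell in each comparison. Leaving out MC_WT replicate 1 or replicate 3 reduced the 14 to 5 or 8, where 2019 of 14561 and 2166 of 14560 tested genes rose. Leaving out MC_Het replicate 3 reduced the 30 to 17, where 2399 of 14490 tested genes rose. The share of nuclear members that rose over MC_Het was then near the background.

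**Figure D2:**
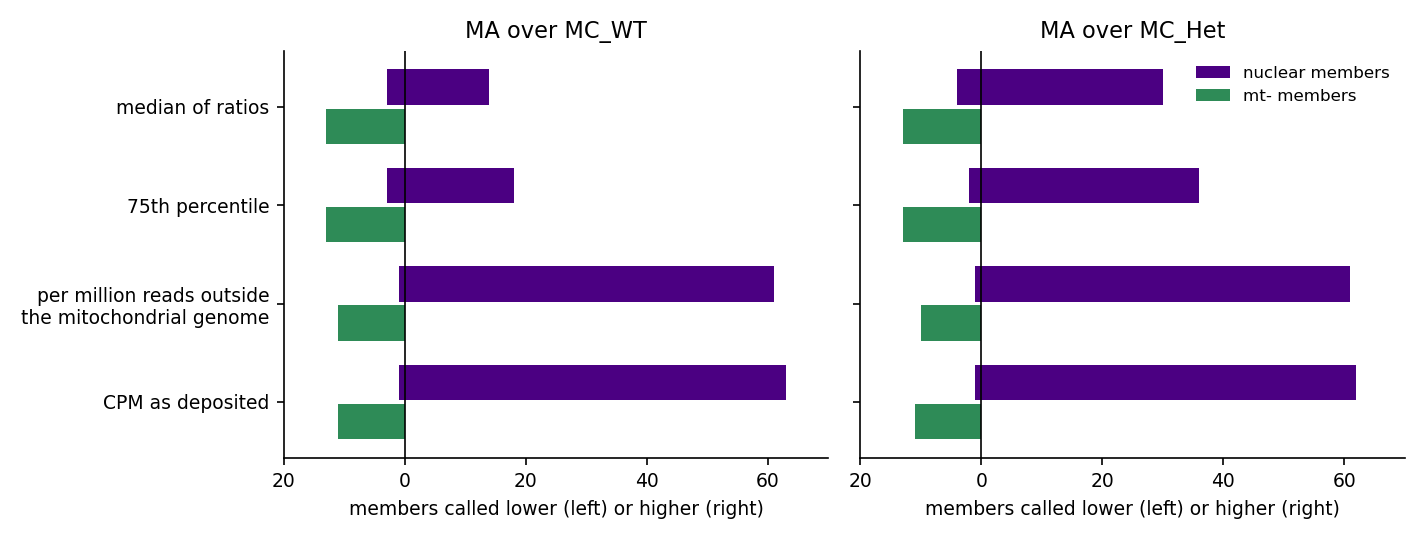
Number of nuclear (upper bar) and mt- (lower bar) members called lower (left of 0) or higher (right of 0) in MA over MC_WT and over MC_Het under 4 ways of scaling the libraries. The nuclear count of higher members ranges between 14 and 63 over MC_WT and between 30 and 62 over MC_Het, and the mt- members are called in the lower direction alone, 10 to 13 of them.

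A ratio within a library does not depend on that scaling. The summed mt- members were 1.89, 1.09, 1.73, 2.03 and 2.89 times the summed nuclear members in MA1, MA2, MA3A, MA3B and MA3C. In MC_Het the ratio was 11.8, 5.65 and 11.4, and in MC_WT 13.1, 7.76 and 11.9. The groups of melanoma and melanocyte samples did not overlap, and MC_Het replicate 2 came closest to the tumors. On the log2 scale the ratio averaged 0.88 ± 0.51 in MA (SD, n = 5), 3.19 ± 0.60 in MC_Het and 3.41 ± 0.40 in MC_WT (n = 3 each), a difference of -2.54 for MA over MC_WT, -2.31 for MA over MC_Het and -0.23 for MC_Het over MC_WT. With the 3 tumors of fish MA3 averaged first, the means of the 3 MA fish were 0.92, 0.12 and 1.12. As a share of all counted reads, the mt- members took 1.61 to 2.96% in MA, 3.54 to 6.42% in MC_Het and 4.74 to 8.22% in MC_WT, and the nuclear members 1.02 to 1.47% in MA, 0.534 to 0.627% in MC_Het and 0.606 to 0.691% in MC_WT.

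**Figure D3:**
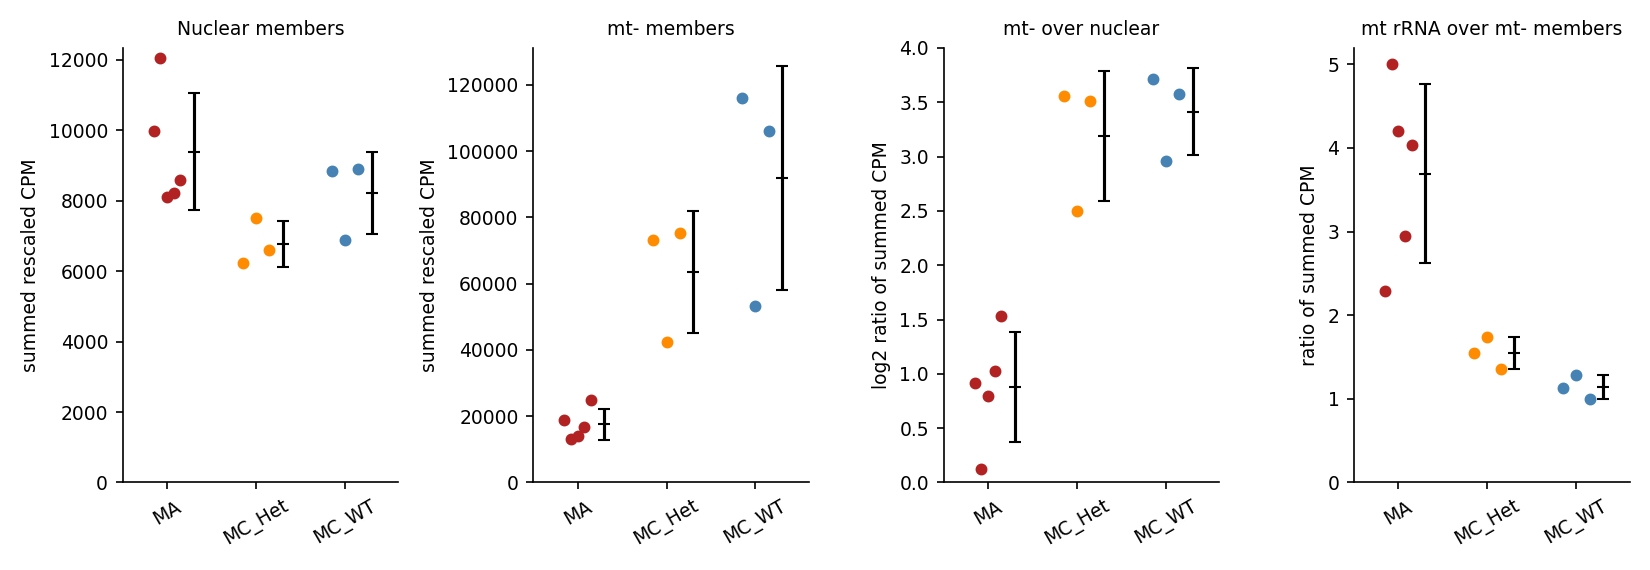
From left to right, summed rescaled CPM of the 95 nuclear members, summed rescaled CPM of the 13 mt- members, the log2 ratio of the mt- to the nuclear sum, and the ratio of mitochondrial rRNA to the mt- members, by group; points are samples, and bars show the mean and SD. The ratio of mt- to nuclear members is 0.12 to 1.53 in MA and 2.50 to 3.71 in the melanocytes on the log2 scale.

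The same split was seen within complexes that draw on both genomes. In complex I the nuclear subunits summed to 2026 to 3097 rescaled CPM in MA, against 1656 to 2025 in MC_Het and 1794 to 2078 in MC_WT, and its 7 mt- subunits to 1717 to 2850 in MA, against 4937 to 7755 in MC_Het and 4544 to 9393 in MC_WT. The nuclear sums of MA and MC_WT overlapped and the mt- sums did not. The nuclear subunits of complex IV summed to 1188 to 3207 rescaled CPM in MA, against 937 to 1070 in MC_Het and 1176 to 1705 in MC_WT, and its 3 mt- subunits to 9494 to 18526 in MA, against 27842 to 52628 in MC_Het and 37836 to 83206 in MC_WT. In complex V the nuclear sums were 2854 to 4311 in MA, 2588 to 3133 in MC_Het and 2950 to 3871 in MC_WT. They overlapped in all groups on this rescaled scale. In the same complex the mt- sums were 811 to 1404 in MA, 2235 to 3539 in MC_Het and 2425 to 5485 in MC_WT, with MA below both. Complex II, which has no mitochondrially encoded subunit, summed to 428 to 569 in MA, 291 to 442 in MC_Het and 328 to 519 in MC_WT.

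**Figure D4:**
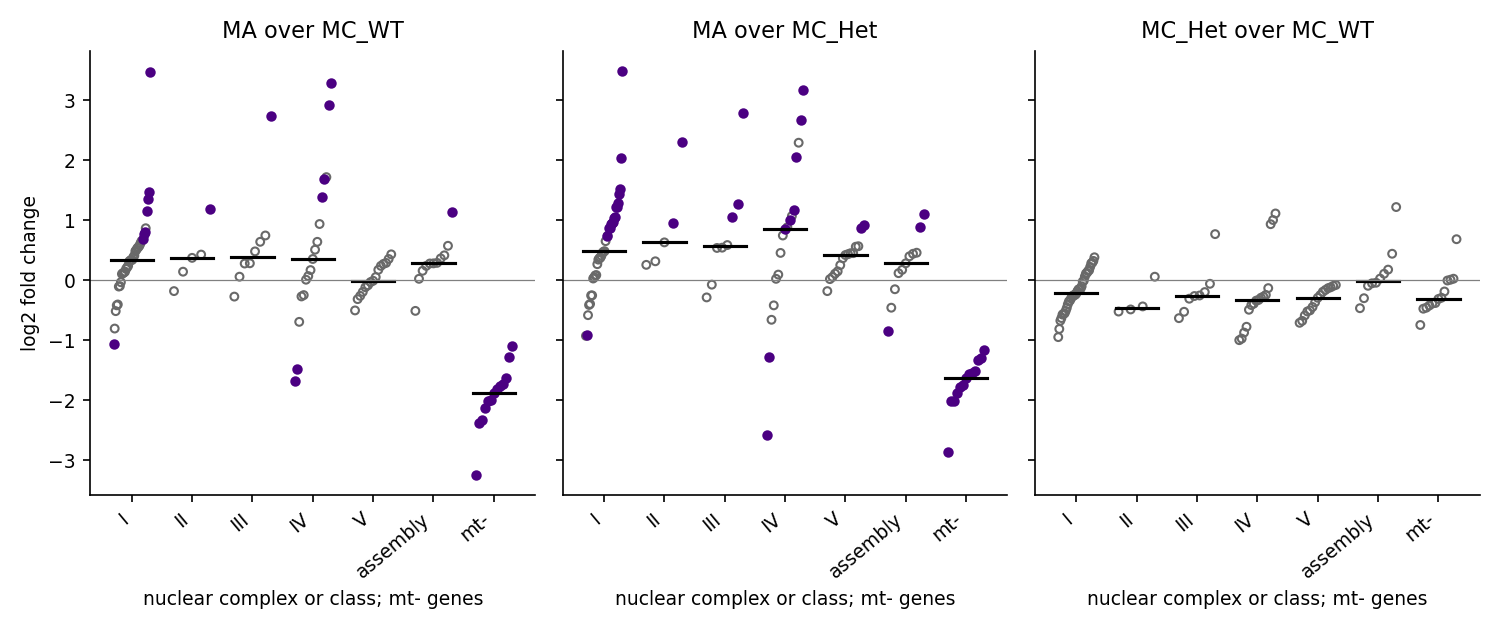
log2 fold change of each tested member in the 3 comparisons, for the nuclear subunits of complexes I to V, the assembly factors and the mt- members; filled points passed the test, open points did not, and bars are medians. The mt- medians lie at -1.89 and -1.63 in the melanoma comparisons, below every nuclear class, whose medians lie between -0.01 and 0.85.

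In complex I, which holds 36 of the 93 tested nuclear members, 7 rose over MC_WT and 15 over MC_Het, with 1 lower in each and medians of 0.34 and 0.48, where the background of higher genes was 19.4% and 20.5%. These counts and the complex I sums include ndufa4, which was classed by its name and is described below. ndufs6, a zinc-binding subunit of the arm that takes electrons from NADH, had the smallest p of all nuclear members over MC_Het. It was at 89.0, 89.2, 63.4, 73.1 and 51.3 rescaled CPM in MA, against 17.5, 15.9 and 16.6 in MC_Het and 25.8, 21.3 and 29.4 in MC_WT, with no overlap. The log2FC of ndufs6 was 2.04 (SE 0.27, limma adjusted p = 2.98e-05) over MC_Het and 1.47 (SE 0.27, limma adjusted p = 0.00053) over MC_WT.

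ndufs5, an accessory subunit on the intermembrane side, was at 96.8, 101, 60.8, 75.5 and 61.3 rescaled CPM in MA, against 23.3, 41.6 and 30.7 in MC_Het and 30.1, 26.0 and 33.4 in MC_WT. Its log2FC was 1.35 over MC_WT and 1.29 over MC_Het, and the lowest tumor exceeded the highest melanocyte sample. ndufs8a, which encodes an iron-sulfur core subunit, rose by a log2FC of 1.15 and 0.87, and ndufb11 and ndufb3 of the membrane arm rose in both comparisons too. ndufb5, also of the membrane arm, rose over MC_Het (log2FC 1.43, SE 0.26, limma adjusted p = 0.00043) and was at 0.62 (SE 0.26, limma adjusted p = 0.0649) over MC_WT. In 14 of the 93 nuclear members every MA sample lay above every melanocyte sample, against 12.5% of all tested genes.

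**Figure D5:**
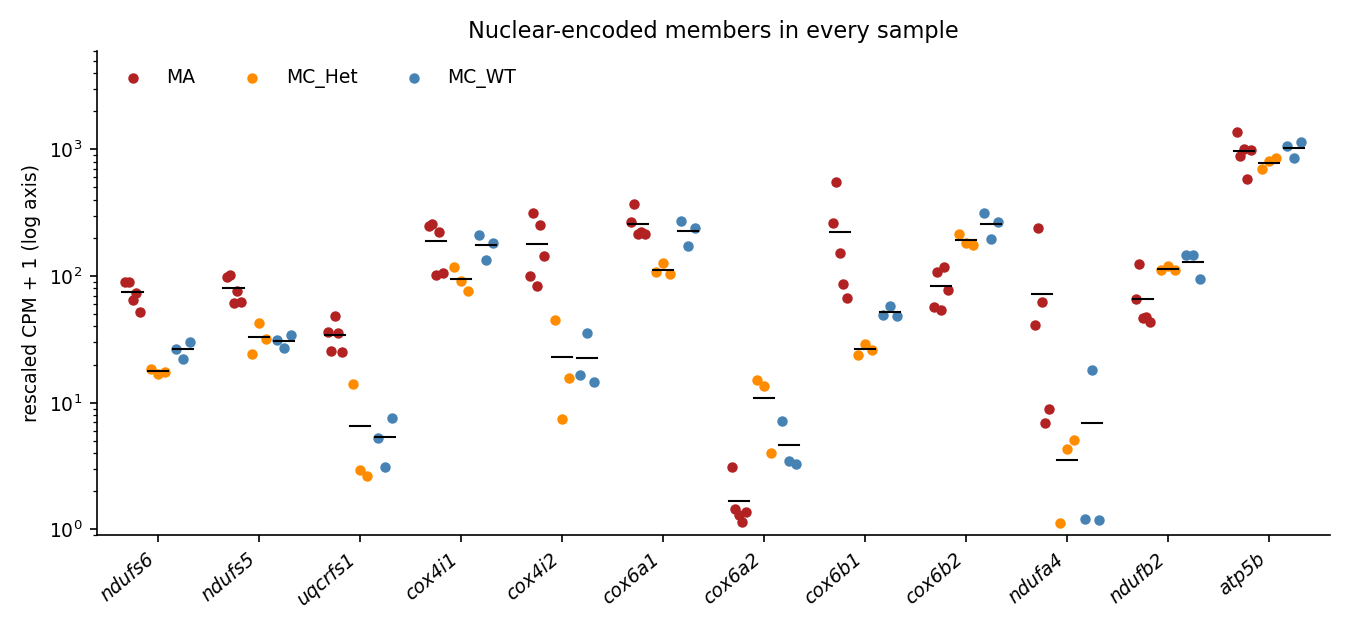
Rescaled CPM + 1 (log axis) of 12 nuclear-encoded members in each of 5 MA, 3 MC_Het and 3 MC_WT samples; points are samples and bars are group means. The MA samples lie above all melanocyte samples for ndufs6, ndufs5, uqcrfs1, cox4i2 and cox6b1, below them for cox6a2 and cox6b2, and overlap them for cox4i1, cox6a1, ndufa4, ndufb2 and atp5b.

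Of the core subunits of complex I that take electrons from NADH, ndufv1, which carries the flavin, and ndufs1 did not pass the test. ndufv1 was at 134, 106, 163, 116 and 135 rescaled CPM in MA, against 48.1, 115 and 177 in MC_Het and 97.6, 79.6 and 101 in MC_WT, and the iron-sulfur subunit ndufs1 had log2FC of 0.34 (SE 0.33) over MC_WT and 0.05 (SE 0.33) over MC_Het. ndufv2, an iron-sulfur subunit beside ndufv1, rose over MC_WT (log2FC 0.80, SE 0.31, limma adjusted p = 0.048) and did not pass the test over MC_Het (0.47, SE 0.31, limma adjusted p = 0.224). It was at 51.1, 52.1, 31.3, 44.8 and 56.0 rescaled CPM in MA, against 23.8, 28.8 and 51.9 in MC_Het and 24.9, 30.4 and 23.7 in MC_WT, so that MA overlapped MC_Het alone. ndufb8, the nuclear subunit of complex I with the highest mean RPKM, was at 138, 181, 130, 202 and 152 rescaled CPM in MA, against 161, 196 and 215 in MC_Het and 173, 153 and 161 in MC_WT. Its log2FC of -0.03 over MC_WT turned to 0.69 on the deposited CPM, where it was called higher. ndufb2, an accessory subunit of the membrane arm, was the single complex I member that fell, at 65.2, 124, 45.9, 46.9 and 42.3 in MA, against 110, 120 and 110 in MC_Het and 145, 145 and 94.4 in MC_WT. MA2 lay within the melanocyte range, and the log2FC of ndufb2 was -1.07 (SE 0.33, limma adjusted p = 0.0181) over MC_WT and -0.92 (SE 0.33, limma adjusted p = 0.0356) over MC_Het, a call that was lost in both comparisons on the deposited CPM and with the MA3 tumors averaged, and over MC_Het with edgeR, with DESeq2 and with fish as a random block.

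ndufa4, named for complex I but found with complex IV in mammals, was at 40.3, 238, 61.9, 5.95 and 7.89 rescaled CPM in MA, against 0.133, 3.33 and 4.11 in MC_Het and 0.219, 17.3 and 0.181 in MC_WT. The tumors differed among themselves by more than the group means did, and MA3B and MA3C, from the same fish as MA3A, were below MC_WT replicate 2. The log2FC of ndufa4 was 3.47 (SE 1.11, limma adjusted p = 0.0208) over MC_WT and 3.49 (SE 1.11, limma adjusted p = 0.0196) over MC_Het, and edgeR did not call it over MC_WT. Its paralogue ndufa4l2b, which had 3 reads in MA1 and 0 in the 10 other libraries, was not tested, nor was ndufs8b, which had at most 7 reads in a library.

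In complex II, the flavoprotein sdha was at 147, 119, 220, 158 and 189 rescaled CPM in MA, against 80.1, 195 and 144 in MC_Het and 126, 104 and 152 in MC_WT, and did not pass the test in either comparison (log2FC 0.31 over MC_Het and 0.37 over MC_WT). The iron-sulfur subunit sdhb, at log2FC of 0.26 over MC_Het and -0.18 over MC_WT, did not pass either. The membrane anchors sdhc and sdhda did, sdhc over MC_Het alone (log2FC 0.95, SE 0.34, limma adjusted p = 0.0354). sdhda was a low gene, at 10.5, 2.99, 2.74, 2.30 and 4.07 rescaled CPM in MA and 0.877, 2.24 and 0.664 in MC_WT, and had 0 reads in all 3 MC_Het libraries. Against a floor of 3 reads per library, the MA mean of sdhda (4.51) was at least 18.5-fold above MC_Het. That mean was raised by MA1, and the other tumors lay below it. The log2FC of sdhda over MC_WT was 1.18 (SE 0.43, limma adjusted p = 0.0364). Its call over MC_WT was lost with edgeR, with a pseudocount of 0.1 and without the filter. The paralogue sdhdb was far higher and did not pass the test, at 118, 112, 45.2, 169 and 68.1 in MA, against 66.2, 65.2 and 49.1 in MC_Het and 84.1, 66.6 and 106 in MC_WT.

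In complex III, 1 of 8 nuclear subunits rose over MC_WT and 3 rose over MC_Het, with 0 lower, beside the 19.4% and 20.5% of all genes that rose. The member of both sets was uqcrfs1, the Rieske iron-sulfur protein, which receives electrons from ubiquinol at cytochrome b. It was at 35.1, 24.6, 47.6, 34.8 and 24.0 rescaled CPM in MA, against 13.1, 1.95 and 1.64 in MC_Het and 4.24, 2.11 and 6.64 in MC_WT, and the groups did not overlap. The log2FC of uqcrfs1 was 2.73 (SE 0.53, limma adjusted p = 0.000763) over MC_WT and 2.79 (SE 0.53, limma adjusted p = 0.000618) over MC_Het. Thus the nuclear Rieske subunit and the mitochondrially encoded cytochrome b of the same complex changed in opposite directions.

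Other subunits of complex III differed less. uqcrh, the hinge protein that helps bind cytochrome c, averaged 105 ± 16.6 rescaled CPM in MA, against 43.3 ± 11.6 in MC_Het and 67.0 ± 11.1 in MC_WT, a log2FC of 1.27 (SE 0.26, limma adjusted p = 0.00111) over MC_Het and 0.64 (SE 0.26, limma adjusted p = 0.0572) over MC_WT. Cytochrome c1, encoded by cyc1, was at 170, 206, 260, 157 and 218 in MA, against 93.3, 205 and 134 in MC_Het and 185, 113 and 209 in MC_WT, and did not pass the test in either comparison.

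Complex IV held the widest range of nuclear differences, with 4 of 17 subunits higher and 2 lower over MC_WT, and 6 higher and 2 lower over MC_Het. Of all tested genes, 19.4% were higher and 25.1% lower over MC_WT, and 20.5% higher and 25.2% lower over MC_Het. Several of its subunits come as paralogues, and in mammals these are used in different tissues. cox4i1 was at 249, 255, 102, 222 and 106 rescaled CPM in MA, against 117, 91.1 and 75.6 in MC_Het and 209, 133 and 182 in MC_WT, and did not pass the test. cox4i2, whose mammalian counterpart is a lung form induced at low oxygen, was at 99.6, 311, 82.1, 253 and 142 in MA, against 44.4, 6.42 and 14.6 in MC_Het and 15.7, 34.8 and 13.6 in MC_WT. All 5 tumors exceeded all melanocyte samples for cox4i2, with a log2FC of 3.17 (SE 0.56, limma adjusted p = 0.00037) over MC_Het and 2.93 (SE 0.56, limma adjusted p = 0.000737) over MC_WT. Per length, cox4i2 stood at 0.294 to 0.986 of cox4i1 in MA, against 0.0517 to 0.279 in MC_Het and 0.0550 to 0.193 in MC_WT.

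The cox6b pair differed in opposite directions. cox6b1 was at 262, 547, 152, 86.2 and 66.1 rescaled CPM in MA, against 23.0, 28.1 and 24.9 in MC_Het and 47.9, 57.2 and 47.3 in MC_WT. cox6b2, which in mammals is the testis form, was at 56.1, 107, 52.8, 118 and 76.1 in MA, against 215, 183 and 174 in MC_Het and 312, 195 and 267 in MC_WT. Neither gene overlapped between melanoma and melanocytes; the tumors were spread widely for cox6b1, MA2 being the highest and MA3C the lowest. The log2FC was 1.69 (SE 0.52, limma adjusted p = 0.0164) over MC_WT and 2.67 (SE 0.52, limma adjusted p = 0.000812) over MC_Het for cox6b1. For cox6b2 it was -1.69 (SE 0.30, limma adjusted p = 0.000425) over MC_WT and -1.27 (SE 0.30, limma adjusted p = 0.00337) over MC_Het, and on the deposited CPM it stayed called over MC_WT but not over MC_Het. Per length, cox6b1 was 1.83 to 12.8 times cox6b2 in MA and 0.267 to 0.731 times in the melanocytes.

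The cox6a pair was less even. cox6a2 shares its name with the mammalian heart and skeletal muscle form, but a current name list gives the same gene as COX6A1. It was low throughout, at 2.13, 0.462, 0.304, 0.153 and 0.370 rescaled CPM in MA, against 14.2, 12.7 and 3.01 in MC_Het and 6.21, 2.48 and 2.29 in MC_WT. It fell in MA (log2FC -2.59 over MC_Het, SE 0.51, limma adjusted p = 0.000919; -1.48 over MC_WT, SE 0.51, limma adjusted p = 0.0302), and the groups did not overlap, although MA1 came close to the lowest melanocyte samples. The call over MC_WT was lost on the deposited CPM. The call over MC_WT was also lost with the MA3 tumors averaged or with fish as a random block. Fast muscle markers summed to 8.70 to 14.8 in MA, 268 to 376 in MC_Het and 116 to 481 in MC_WT, with 8 of 10 tested lower in each comparison. The muscle actin genes moved otherwise, acta1a being higher in MA over MC_WT and over MC_Het and acta1b over MC_Het. The part of these markers in the level of cox6a2 was not tested. cox6a1, which shares its name with the widely used mammalian form, rose over MC_Het (log2FC 1.17, SE 0.26, limma adjusted p = 0.00213) and was at 0.17 (SE 0.26, limma adjusted p = 0.627) over MC_WT.

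Some subunits of complex IV were high in single tumors. cox4i1l was at 43.0, 238, 19.1, 4.41 and 2.07 rescaled CPM in MA, against 2.85, 4.87 and 2.19 in MC_Het and 0.877, 3.26 and 0.121 in MC_WT, and it passed the test over MC_WT (log2FC 3.30, SE 1.06, limma adjusted p = 0.0204) but not over MC_Het (2.29, SE 1.06, limma adjusted p = 0.0905). cox8b was at 13.7, 73.3, 16.2, 4.41 and 6.74 in MA, against 3.25, 3.98 and 1.30 in MC_Het and 3.8, 7.67 and 1.33 in MC_WT. MA2 was the highest tumor for both, as for ndufa4, cox4i2 and cox6b1, and it had the largest nuclear sum, 12042 rescaled CPM, and the smallest mt- sum of the tumors, 13123. COX5B, the nuclear subunit of complex IV with the highest mean RPKM, was at 509, 718, 286, 410 and 346 in MA, against 220, 293 and 263 in MC_Het and 391, 271 and 362 in MC_WT, without passing the test. The members cox7a1, cox7a3 and cox8a did not pass it either, with log2FC of 0.94, -0.70 and -0.25 over MC_WT, and cox6c passed it over MC_Het alone (log2FC 0.85). DESeq2 did call cox7a3 lower over MC_WT, as did limma without MA2 or without MC_WT replicate 2.

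In complex V no nuclear subunit passed the test over MC_WT (0 of 15 higher and 0 lower, also at an unadjusted p under 0.05, and by edgeR and DESeq2), with a median log2FC of -0.01. At an unadjusted limma p under 0.05, 3529 of all 14706 tested genes were higher over MC_WT and 4119 lower. edgeR called 2401 of 14706 genes higher and 3435 lower there, and DESeq2 called 3061 of 14585 higher and 3699 lower. Over MC_Het 2 rose, beside the 20.5% of all genes that rose there and 19.4% over MC_WT. The 2 subunits were atp5a1, the alpha subunit (log2FC 0.92, SE 0.26, limma adjusted p = 0.0112), and atp5l, subunit g of the membrane part (log2FC 0.88, SE 0.34, limma adjusted p = 0.0475). atp5b, the catalytic beta subunit and the nuclear member of complex V with the highest mean RPKM, was at 1363, 882, 1012, 578 and 984 rescaled CPM in MA, against 693, 810 and 848 in MC_Het and 1064, 848 and 1138 in MC_WT. Its log2FC was -0.12 (SE 0.29) over MC_WT and 0.25 (SE 0.29) over MC_Het. Per length, mt-atp6 was 2.08 to 3.32 times atp5b in MA, against 6.59 to 11.5 times in MC_Het and 6.91 to 12.4 times in MC_WT. The genes for the c-ring, atp5g1, atp5g3a and atp5g3b, had log2FC of -0.03, 0.29 and -0.20 over MC_WT. On the deposited CPM, where 63 nuclear members were called higher over MC_WT, atp5g1 was among them (0.69). limma here, edgeR and DESeq2 all rescaled the libraries, so the absence of complex V calls over MC_WT holds for rescaled values alone.

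Among the 11 assembly factors, sdhaf3, which helps to mature the iron-sulfur subunit of complex II, rose in both comparisons, at 18.0, 35.2, 28.0, 30.4 and 23.6 rescaled CPM in MA, against 8.43, 12.7 and 14.9 in MC_Het and 13.5, 9.61 and 11.6 in MC_WT. The log2FC of sdhaf3 was 1.14 over MC_WT and 1.11 over MC_Het. ndufaf5, an assembly factor of complex I, was at 24.5, 17.9, 20.9, 16.3 and 39.3 in MA, against 34.8, 49.1 and 42.6 in MC_Het and 19.9, 16.4 and 16 in MC_WT. It fell over MC_Het (log2FC -0.86, SE 0.32, limma adjusted p = 0.0389), with MA3C inside the MC_Het range, while the estimate over MC_WT was 0.36 (SE 0.32). The call of ndufaf5 over MC_Het was lost on the deposited CPM and on reads outside the mitochondrial genome. It was also lost with the 75th percentile, with edgeR, with fish as a random block and without some single samples.

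The calls over MC_WT and over MC_Het share the MA samples. 11 nuclear members rose in both, which is 78.6% of those called over MC_WT and 36.7% of those called over MC_Het. The matching shares over all tested genes were not counted, so these are not read as high or low. The 11 were cox4i2, cox6b1, ndufa4, ndufb11, ndufb3, ndufs5, ndufs6, ndufs8a, sdhaf3, sdhda and uqcrfs1. cox6a2, cox6b2 and ndufb2 fell in both. Of the 19 members that rose over MC_Het alone, 0 passed the limma test of MC_Het over MC_WT, where their smallest adjusted p was 0.149, and DESeq2 called 1 of them, cox6a1, lower in MC_Het. The 5 MA samples come from 3 fish, and some calls did not hold once that was allowed for. With the MA3 tumors averaged, cox6a2, ndufb2, ndufb3 and ndufv2 were no longer called over MC_WT, nor ndufb2 and ndufs8a over MC_Het. With fish as a random block, cox6a2, ndufb3 and ndufv2 were not called over MC_WT, nor atp5l, ndufaf5, ndufb2, ndufs8a, sdhaf4 and sdhc over MC_Het, while all 13 mt- members were called lower in both comparisons under either setting.

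Between the melanocyte classes, no member passed the test. In MC_Het over MC_WT, 0.353% of all tested genes rose and 0.161% fell, and 0 of 89 nuclear and 0 of 13 mt- members were among them by limma or by edgeR. At an unadjusted p under 0.05, 2 nuclear members were higher, 7 were lower and 0 mt- members were called, and DESeq2 called ndufaf5 higher and cox6a1 and cox6b1 lower at an adjusted p under 0.05. The smallest p in each direction belonged to cox6a1, at 107, 125 and 103 rescaled CPM in MC_Het, against 271, 173 and 238 in MC_WT (log2FC -1.0, SE 0.26, limma adjusted p = 0.149), and to ndufaf5 (log2FC 1.22, SE 0.32, limma adjusted p = 0.15). The groups did not overlap for either gene. The median log2FC was -0.25 over the nuclear members and -0.31 over the mt- members, and among the mt- members mt-nd3 had the largest positive value (0.68, SE 0.36) and mt-co1 the most negative one (-0.75, SE 0.46).

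Other nuclear genes of the pathway were read from lists that hold no member. Of 17 tested genes for the expression of the mitochondrial genome and its control, 4 rose in MA over MC_WT, 5 rose over MC_Het and 0 fell in either, with medians of 0.62 and 0.53, beside the 19.4% and 20.5% of all genes that rose. From this list ppargc1a was too low to be tested. It was at 7.89, 0.423 and 3.98 rescaled CPM in the MC_WT samples, against means of 0.426 in MC_Het and 0.112 in MA. tfam, which packages mitochondrial DNA and starts its transcription, was at 43.6, 62.0, 59.6, 62.8 and 39.1 rescaled CPM in MA, against 22.4, 22.3 and 15.5 in MC_Het and 12.3, 18.7 and 16.1 in MC_WT, with a log2FC of 1.70 (SE 0.29) over MC_WT and 1.36 (SE 0.29) over MC_Het. lrpprc, which stabilises mitochondrial messages in mammals, had a log2FC of 1.26 and 1.48, and its partner slirp rose over MC_Het alone (1.26).

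Of 24 assembly and copper delivery genes, 3 rose over MC_WT and 4 over MC_Het, beside the 19.4% and 20.5% of all genes that rose. From the same list cox17, which carries copper towards complex IV, fell in both (log2FC -0.78 and -0.89). Of 12 electron carrier genes, 1 rose and 2 fell over MC_WT, and 3 rose and 2 fell over MC_Het. The gene coq2 of ubiquinone synthesis rose in both (0.84 and 1.39), and pdss1 (1.40) and pdss2 (1.91) rose over MC_Het alone. Both coq10b, which binds ubiquinone (-1.95 and -1.99), and etfb, the beta subunit of the electron transfer flavoprotein (-1.62 and -1.89), fell in both. Of 12 tricarboxylic acid cycle genes, ogdha, a subunit of the 2-oxoglutarate dehydrogenase complex, fell in both (-0.93 and -0.64) and 0 rose. Of 12 carriers and pores, 2 rose over MC_WT and 4 over MC_Het, with 1 lower in each. Those that rose in both were vdac3 of the outer membrane channel (1.68 and 0.93) and tomm40l of the import pore (2.08 and 3.67). Over MC_Het alone, vdac1 (1.06) and timm50 (1.53) rose. The uncoupling protein gene ucp3 fell in both (-1.34 and -2.17). Each pair is given over MC_WT and then over MC_Het. Of all tested genes, 25.1% and 25.2% fell in these comparisons. In MC_Het over MC_WT 0 genes of these 5 lists were called.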

How the data were processed

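RNA from the sorted cells was amplified with the SMARTer kit and sequenced as single-end reads, and the submitters' processing notes name STAR, RSEM and GRCz11. The deposited table gives CPM, scaled by the authors to the library total, and RPKM, which the authors made by dividing the same CPM by a fixed gene length. The CPM were whole reads in 100% of entries (tolerance 0.01 reads); the study's methods describe RSEM with RefSeq genes for zebrafish, but these values are whole and carry Ensembl identifiers, and which counter made them could not be determined. Of 24874 rows, 24441 genes remained after merging repeated identifiers. CPM were divided by median-of-ratios factors over the 11 libraries. limma 3.58.1 (trend, R 4.3.3) was fitted on log2(value + 1), over 11 samples for the MA comparisons and over the 6 melanocyte samples for MC_Het over MC_WT, keeping genes with at least 1 CPM in 3 samples (14706 and 13044), with 2-sided p-values. Tumors of 1 fish were counted as separate samples. Alternatives averaged them or blocked on fish, used edgeR 4.0.16 or, on the same reads, DESeq2 1.42.0, changed scaling, filter or pseudocount, or left out samples. The members and lists were chosen with earlier results of these data known. Genes named are the mt- members, the 4 nuclear members with the smallest p per direction and comparison, the highest per length of each complex, paralogue sets and core subunits; ndufb11, ndufb3, ndufs8a, sdhaf3, atp5a1, atp5l, ndufv2 and the genes of the pathway lists were named after their values were seen.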

Additional observations from a re-analysis of the deposited data

Results flagged for a closer look

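Of 52 values examined over the 5 MA samples (the named members and 4 sums or ratios), 8 had 1 tumor far from the other 4, by a gap to its neighbour of more than 0.71 of the group's range. Chance would flag about 1 in 20 groups of independent, normally distributed values. The levels were not shown to be normal, and MA3A, MA3B and MA3C share a fish. That rate therefore does not carry over, and the number of flags to expect by chance is not known. MA2 was the highest tumor for cox4i1l (238 rescaled CPM), cox8b (73.3), ndufa4 (238) and ndufb2 (124). MA1 was the highest for sdhda (10.5), cox6a2 (2.13) and ndufa4l2b (0.121, which is 3 reads, while the other tumors had 0). MA3C was the highest for mt-nd3 (62.2).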

How the results depend on the processing

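The lower level of the mt- members kept its direction under every alternative, with 10 to 13 of 13 called in each melanoma comparison. On the deposited CPM and on reads outside the mitochondrial genome, mt-nd1 and mt-nd3 were not called over MC_WT. Over MC_Het, mt-nd1 and mt-atp8 were not called on either scale, nor mt-nd2 on the second. The mean mt- sum was 5.25-fold lower in MA than in MC_WT rescaled, and 3.10-fold lower as a share of the library. Against MC_Het the same values were 3.63-fold and 2.38-fold. The nuclear counts also moved with the scaling. On the deposited CPM, 63 nuclear members were higher and 1 lower over MC_WT, and 62 higher and 1 lower over MC_Het. Of all tested genes, 37.8% and 35.7% were higher on that scale and 18.7% and 19.9% lower. On CPM computed over the reads outside the mitochondrial genome the counts were 61 and 1 in both comparisons. Of all 14706 tested genes, 5356 were higher and 2812 lower over MC_WT there, and 5117 and 2975 over MC_Het. On these scales atp5g1 (0.69 and 0.63) and ndufb8 (0.69 and 0.63) turned positive over MC_WT. Lower nuclear members fell to 1 over MC_WT with the MA3 tumors averaged, and to 2 over MC_Het with the 75th percentile, edgeR or fish as a random block. Of all 14706 tested genes, 3284 were lower in the first of these fits, and 3516, 3480 and 3391 in the others. DESeq2 called 1 nuclear member higher and 2 lower in MC_Het over MC_WT, beside 293 higher and 222 lower of 13009 tested genes. Leaving out single samples gave 5 (without MC_WT replicate 1) to 14 higher and 1 (without MC_WT replicate 1) to 4 lower over MC_WT, and 17 (without MC_Het replicate 3) to 31 higher and 2 (without MA3A, MC_Het replicate 2 or MC_Het replicate 3) to 5 lower over MC_Het. Those fits tested 14447 to 14569 genes. Of all genes, 2019 to 2941 were higher and 3038 to 3720 lower over MC_WT, and 2380 to 2987 and 3215 to 3721 over MC_Het. The log2 ratio of mt- to nuclear sums differed by -0.46 to 0.12 for MC_Het over MC_WT, positive without MC_Het replicate 2. The same differences for the melanoma comparisons were -2.77 to -2.35 over MC_WT and -2.65 to -2.12 over MC_Het. With a replicate block in MC_Het over MC_WT, 0 members were called, as without it, and 3 genes of all tested were higher and 5 lower, against 46 and 21; same-numbered samples did not deviate together (correlations -0.01, -0.12 and -0.07), so the numbers were not taken as pairs. The causes of these changes were not tested. Depth limited the lowest members: ndufa4l2b and ndufs8b were not tested, and 1 read was worth 0.0442 to 0.0679 CPM.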
